A study of Rattus norvegicus with 9 samples.

Results

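The miR-30 family was followed through small RNA sequencing of rat retina with and without oxygen-induced retinopathy. Its members were taken by name, as every mature miRNA listed as miR-30a, miR-30b, miR-30c, miR-30d or miR-30e, whichever arm or gene copy, which gave 11 of the 465 miRNAs counted (rno-miR-30a-5p, rno-miR-30a-3p, rno-miR-30b-5p, rno-miR-30b-3p, rno-miR-30c-5p, rno-miR-30c-1-3p, rno-miR-30c-2-3p, rno-miR-30d-5p, rno-miR-30d-3p, rno-miR-30e-5p and rno-miR-30e-3p, written below without the prefix for rat). The 11 are 5 arms from the 5′ side of the hairpin (5p) and 6 from the 3′ side (3p), and all 11 passed the filter on low counts in both comparisons. All animals were wild-type Sprague Dawley rats, in 3 groups of 3 libraries. Sham P14 stands for sham animals taken on postnatal day 14, OIR P14 for animals of that day that had oxygen-induced retinopathy, and OIR P29 for retinopathy animals kept to postnatal day 29. The model stands for retinopathy of prematurity: altered oxygen after birth halts retinal vessel growth, and disordered new vessels follow. No sham group at postnatal day 29 was analysed here, so age and the stage of the model cannot be told apart in the later comparison. The labels say neither what the sham animals underwent nor how many animals went into a library, so the p-values cover the variation among these libraries, which may be technical. Libraries are called by the codes of their columns.

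miRNAs are short RNAs that guide Argonaute proteins to messenger RNAs, chiefly through the seed, bases 2 to 8 of the mature strand. The miR-30 5p arms share a seed and so a large set of predicted targets. In cultured human endothelial cells and zebrafish, miR-30 represses the Notch ligand DLL4, which restrains vessel sprouting, and in other mammalian cells it represses the autophagy gene BECN1 and the mesenchymal regulator SNAI1. The 3p arms are the opposite strands of the same hairpins, carry other seeds, and are usually degraded when the 5p arm is loaded.

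The sequences below show which members share a seed and how near some are to each other. They come from RefSeq (build GRCr8), which held a mature sequence for 6 of the 11 members and for miR-384-5p, which bears another name but the same seed. Capitals mark the seed.
miR-30a-5p: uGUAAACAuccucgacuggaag
miR-30e-5p: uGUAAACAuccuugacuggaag
miR-30c-5p: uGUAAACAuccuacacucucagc
miR-384-5p: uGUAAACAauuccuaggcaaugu
miR-30a-3p: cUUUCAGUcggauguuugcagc
miR-30c-1-3p: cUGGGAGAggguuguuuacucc
miR-30c-2-3p: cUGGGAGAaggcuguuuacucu
Of 423 miRNAs in the deposited tables with a RefSeq sequence, these 4 alone had the seed GUAAACA. miR-30a-5p and miR-30e-5p differ by the single substitution C13U, counted from 1 at the 5′ end of miR-30a-5p, so a read with 1 error could count for the other. No source used here says how mismatches were handled, and the split of counts between this pair is uncertain to that extent. The 3p arms of the miR-30c copies differ at 3 positions (G9A, U12C and C22U, from miR-30c-1-3p to miR-30c-2-3p), while their 5p arm is identical and cannot be assigned to either copy. miR-30b-5p, miR-30b-3p, miR-30d-5p, miR-30d-3p and miR-30e-3p are described by name.

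RefSeq places the 6 hairpin genes as 3 neighbouring pairs. Mir30a and Mir30c2 lie 19.7 kb apart on the plus strand of chromosome 9, Mir30c2 within the long non-coding gene LOC134480562 and the pseudogene Rbx1-ps1. Mir30c1 and Mir30e lie 2.91 kb apart on the minus strand of chromosome 5, within Nfyc, which encodes a subunit of the transcription factor NF-Y. Mir30b and Mir30d are each other's nearest miRNA genes on chromosome 7, within the long non-coding gene LOC102551574. The hairpins of the chromosome 9 pair are shown because 3 of the 4 members called at P29 come from them, with the mature arms in capitals. Mir30a spans chr9:33233941-33234011 (plus strand) and Mir30c2 spans chr9:33253682-33253765 (plus strand).
Mir30a: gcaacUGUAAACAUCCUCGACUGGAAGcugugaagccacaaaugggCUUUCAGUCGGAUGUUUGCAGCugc
Mir30c2: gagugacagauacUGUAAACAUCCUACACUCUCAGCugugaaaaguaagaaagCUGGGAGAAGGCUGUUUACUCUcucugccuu

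Total counts ran from 11808893 to 12568341 among the sham P14 libraries, from 12694068 to 15260603 among those of OIR P14 and from 13088233 to 13973950 among those of OIR P29. miR-182, a defining miRNA of photoreceptors, took 59.3% to 68.1% of them. Levels below are counts scaled to a common library size after TMM scaling of all 9 libraries together (CPM), and a count of 0 would allow up to 0.195 to 0.262 CPM, taken as 3 counts of a library. Such limits cover counting error only. OIR P29 library 47 stood apart for miR-184, a miRNA of cornea and lens epithelium, at 1930 CPM against 13.8 and 35.4 CPM in libraries 20 and 21. P29 calls of members are therefore also given without library 47. Sham P14 library 51 was also the highest of its group for miR-184, at 141 CPM against 18.8 and 27.6 CPM in libraries 25 and 27. Without library 51, 0 members were called at P14. Within each group the replicates differed by more than counting noise over the 11 members (chi-square per degree of freedom 15.6 to 84.1), so each was counted as 1 library, which does not show that they are separate animals.

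The family was abundant in the counts, and nearly all of its counts were 5p. Its 11 members took 2.38%, 2.66% and 2.33% of the counts in the sham P14 libraries, 2.18%, 2.25% and 2.45% in OIR P14, and 2.85%, 3.17% and 3.45% in OIR P29. The 3 OIR P29 libraries lay above the other 6. With miR-182 left out of the total the shares were 6.70% ± 0.509, 6.83% ± 0.190 and 7.96% ± 0.606 in the same order of groups (SD, n = 3 each). The 6 3p arms summed to 631 ± 51.1 CPM (sham P14), 597 ± 32.2 CPM (OIR P14) and 646 ± 25.7 CPM (OIR P29; SD, n = 3 each), against 23545 ± 1362, 24552 ± 754 and 28486 ± 2128 CPM for the 5p arms.

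miR-30a-5p ranked 6th or 7th among all 465 miRNAs in every library. The order of mean CPM among the 5p arms was the same in all 3 groups: miR-30a-5p, miR-30d-5p, miR-30e-5p, miR-30c-5p and miR-30b-5p, with no overlap between neighbours in any group. The 3p arms followed in the order miR-30e-3p, miR-30a-3p and miR-30d-3p. miR-30c-1-3p and miR-30c-2-3p overlapped in sham P14 and OIR P14, and miR-30b-3p was the scarcest, with 62 to 119 counts per library. Mature miRNAs have nearly the same length, so CPM values were not divided by length. How evenly different sequences were captured in the libraries was not measured. The order of members and the ratios between members or arms therefore describe counts, which may differ from the amounts in the retina.

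**Figure D1:**
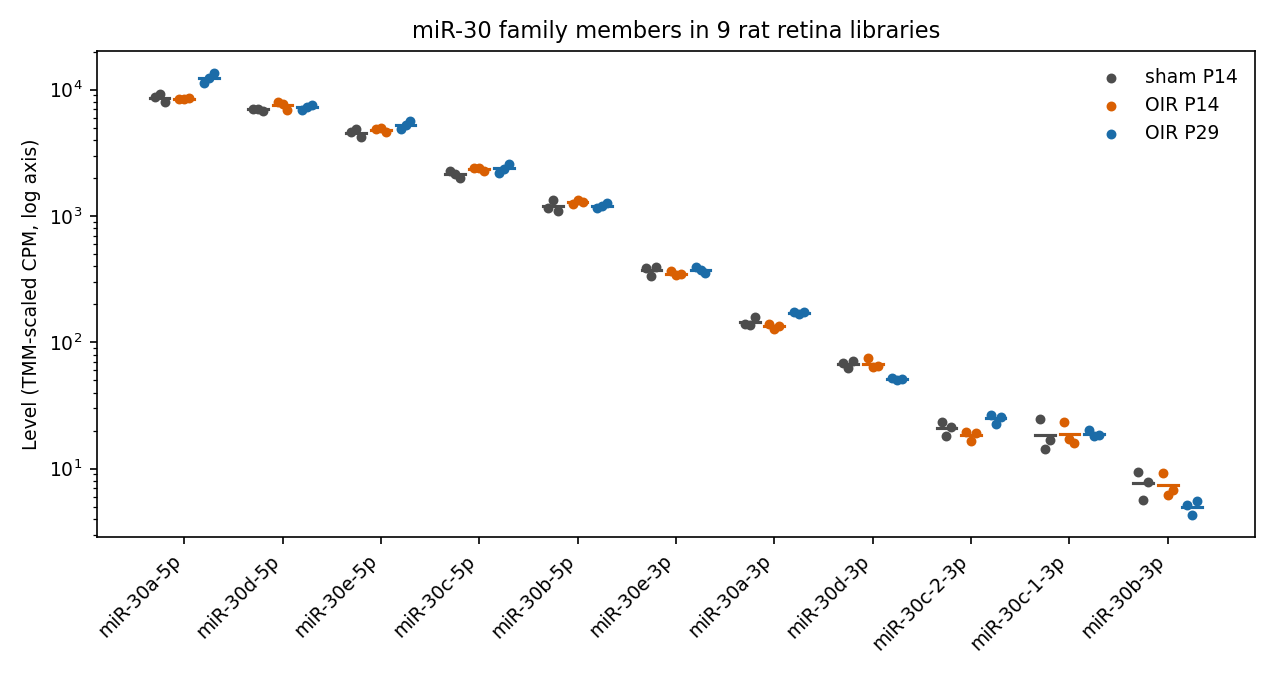
Level of each miR-30 member (TMM-scaled CPM, log axis) in 9 libraries; points are libraries, short lines are group means, colours are the 3 groups. miR-30a-5p stands at 8447 to 8587 CPM in OIR P14 and at 11234 to 13594 CPM in OIR P29, while miR-30d-3p runs the other way.

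In the composition of the family, miR-30a-5p made up 35.8% ± 0.863 of the miR-30 counts of sham P14, 33.9% ± 1.31 of those of OIR P14 and 42.5% ± 0.979 of those of OIR P29 (SD, n = 3 each). miR-30d-5p held 28.9% ± 0.968, 30.1% ± 1.501 and 24.9% ± 0.713 (SD, n = 3 each). miR-30e-5p held 18.9% ± 0.405, 19.2% ± 0.135 and 18.1% ± 0.0664 (SD, n = 3 each). miR-30c-5p held 8.84% ± 0.435, 9.34% ± 0.0497 and 8.19% ± 0.101, and miR-30b-5p 4.95% ± 0.341, 5.13% ± 0.257 and 4.12% ± 0.108 (SD, n = 3 each). The OIR P29 libraries lay above all others for the share of miR-30a-5p and below all others for those of the other 4 5p arms. Shares of a whole are tied to each other, so these are not separate results, and no test was made of them.

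**Figure D2:**
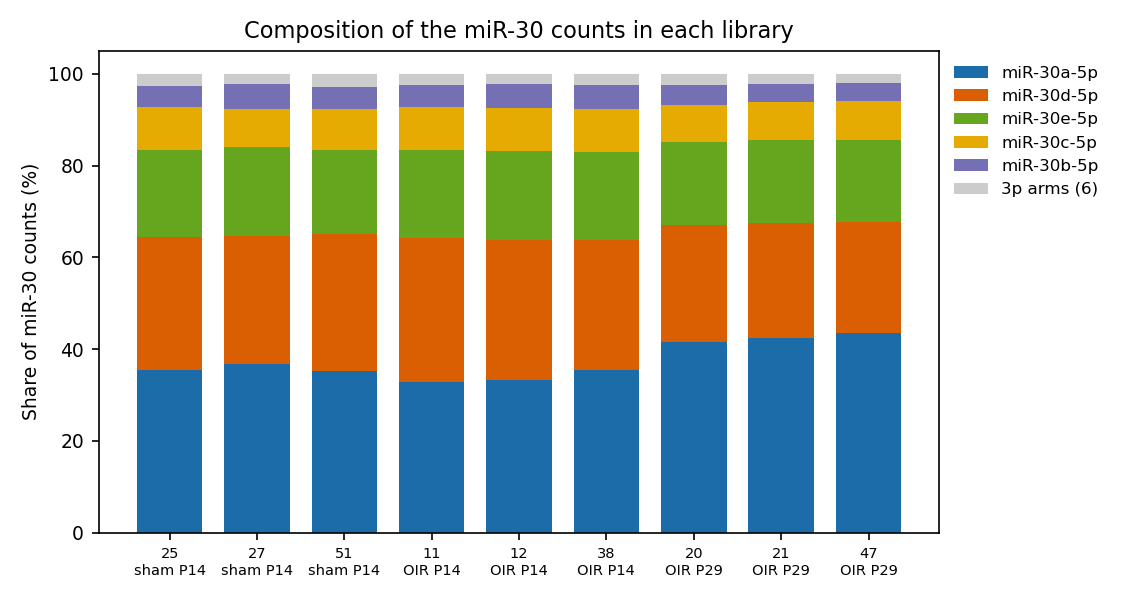
Share of the miR-30 counts (%) taken by each 5p arm and by the 3p arms together, 1 bar per library. The miR-30a-5p segment reaches 41.5% to 43.5% in the OIR P29 libraries and 32.9% to 36.8% in the others.

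Retinopathy was first set against sham at the same age, postnatal day 14. No miR-30 member passed the test. Tested with edgeR (quasi-likelihood, Benjamini-Hochberg over 415 miRNAs), 0 of 11 members were called, where 1.69% of all miRNAs were. An unadjusted p under 0.05 was reached by 0 members and by 9.16% of all miRNAs, and DESeq2 and limma-voom also called 0. The groups failed to overlap for 0 members and for 15.2% of all miRNAs (3.86% higher, 11.3% lower). The members' log2 folds ran from -0.15 to 0.16 with a median of 0.04, beside a median of -0.03 over all miRNAs.

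miR-30a-5p, the most abundant member, stood at 8714, 9297 and 7988 CPM in the sham P14 libraries and at 8447, 8515 and 8587 CPM in OIR P14. The OIR P14 libraries lay within the sham range, and the log2 fold of 0.0021 had a 95% interval of -0.19 to 0.19. miR-30d-5p stood at 7090, 7048 and 6776 CPM in sham P14 and 8050, 7761 and 6900 CPM in OIR P14. Of these, OIR P14 libraries 11 and 12 were above all sham libraries and library 38 was not (log2 fold 0.15, 95% interval -0.06 to 0.35, edgeR adjusted p = 0.588). miR-30c-5p had the smallest p of the 11, with a log2 fold of 0.16 (95% interval -0.02 to 0.35, edgeR unadjusted p = 0.0766, adjusted p = 0.565). The intervals of all 5 abundant 5p arms lay within -0.19 to 0.35 on the log2 scale. Those of the scarce 3p arms were wider, up to -0.55 to 0.52 for miR-30b-3p.

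The vessel markers moved between the same libraries, where 1.69% of all 415 miRNAs were called, all of them lower. Summed CPM of the endothelial miRNAs (miR-126a-3p and miR-126a-5p, both lower in OIR P14) was 630 to 728 in sham P14 and 165 to 304 in OIR P14. The mural cell miRNAs (miR-145-3p and miR-143-3p, both lower, and miR-145-5p, not called) summed to 1159 to 1293 and 298 to 605 CPM. Blood cell markers were called lower as well, namely miR-451-5p (1 of 2 erythroid markers tested) and miR-150-5p (1 of 3 leukocyte markers tested). The other 2 leukocyte markers had positive log2 folds and were not called. In whole retina, fewer cells of a type and less of an RNA per cell cannot be told apart. Of a list of angiogenesis-linked miRNAs, 28 were in the table and 27 passed the filter, of which 3 were lower and 0 higher at this age (miR-126a-3p, miR-126a-5p and miR-150-5p).

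The second comparison set OIR P29 against OIR P14. The members are given by gene position. Every listed arm that comes only from the chromosome 9 pair was higher at P29, with miR-30a-5p rising 1.43-fold, miR-30c-2-3p 1.33-fold and miR-30a-3p 1.26-fold. Arms from the chromosome 5 pair did not pass the test, and of the chromosome 7 pair miR-30d-3p fell, to a level 1.34 times lower. Counted together, edgeR called 4 of 11 members, 3 higher and 1 lower, where 46.7% of the 424 miRNAs tested were called (22.9% higher, 23.8% lower). An unadjusted p under 0.05 was reached by 5 members and by 55.4% of all miRNAs. The groups did not overlap for 3 members that were higher and 2 that were lower, against 30.2% and 27.1% of all miRNAs, 57.3% together. The members' median log2 fold was 5.4e-05 and that of all miRNAs -0.01. The grouping by position was made after the values were seen, no difference between the gene pairs was tested, and the intervals of all 3 chromosome 5 arms overlap those of miR-30a-3p and miR-30c-2-3p.

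miR-30a-5p counted 109297, 108707 and 109939 reads in the OIR P14 libraries and 155121, 178163 and 209367 in OIR P29. As levels these were 8447, 8515 and 8587 CPM and 11234, 12352 and 13594 CPM, so every P29 library was above every P14 library. The log2 fold was 0.52 ± 0.08 SE (edgeR adjusted p = 0.00196), the 86th highest of 424. Its passenger strand miR-30a-3p stood at 140, 128 and 134 CPM in OIR P14 and 175, 167 and 173 CPM in OIR P29, again without overlap (log2 fold 0.33 ± 0.09 SE, edgeR adjusted p = 0.0150). Without library 47 the log2 folds were 0.50 for miR-30a-5p and 0.38 for miR-30a-3p, both called (edgeR adjusted p = 0.00206 and 0.0134). Both were called under all 15 alternatives. The largest adjusted p was 0.00539 for miR-30a-5p (edgeR, without OIR P14 library 12) and 0.0492 for miR-30a-3p (limma-voom, quantile normalization). Scaling on library totals alone, which shifted the median over all miRNAs from -0.01 to 0.25 in log2 fold, gave 0.79 and 0.60, or 0.53 and 0.35 relative to that median, and quantile normalization in limma-voom gave 0.33 and 0.25.

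miR-30c-2-3p, from the other hairpin of the chromosome 9 pair, stood at 19.6, 16.7 and 19.2 CPM in OIR P14 and 26.7, 22.7 and 25.6 CPM in OIR P29. The groups did not overlap (log2 fold 0.41 ± 0.12 SE, edgeR adjusted p = 0.0252, 0.0370 without library 47). Sham P14 levels of miR-30c-2-3p were 23.27, 18.03 and 21.29 CPM, which overlapped OIR P29. Its call was lost without OIR P14 library 12 (log2 fold 0.36, edgeR adjusted p = 0.0733) or OIR P29 library 20 (0.39, 0.0583), with adjusted p from 0.00488 to 0.0733 over 15 alternatives. The log2 fold was 0.68 with totals alone, 0.42 relative to the median. miR-30c-5p, which both copies of the gene make, stood at 2389, 2398 and 2260 CPM in OIR P14 and 2196, 2369 and 2597 CPM in OIR P29. These groups overlapped fully, and the 95% interval of the log2 fold was -0.20 to 0.20.

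In the chromosome 5 pair, miR-30e-5p stood at 4898, 4938 and 4648 CPM in OIR P14 and 4896, 5287 and 5648 CPM in OIR P29 (log2 fold 0.10, 95% interval -0.08 to 0.29, edgeR adjusted p = 0.308). miR-30e-3p had a log2 fold of 0.07 (95% interval -0.13 to 0.27) and miR-30c-1-3p of -0.02 (-0.42 to 0.38). With totals alone, miR-30e-5p and miR-30e-3p were called higher (log2 folds 0.38 and 0.34, edgeR adjusted p = 0.0105 and 0.0202). Relative to that median their log2 folds were 0.12 and 0.09.

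In the chromosome 7 pair, miR-30d-3p stood at 74.7, 64.0 and 64.9 CPM in OIR P14 and 52.4, 49.9 and 51.6 CPM in OIR P29. All 3 later libraries were below all 3 earlier ones, with a log2 fold of -0.43 ± 0.10 SE (edgeR adjusted p = 0.00881, 0.0295 without library 47). That call was lost without OIR P29 library 21 (log2 fold -0.35, edgeR adjusted p = 0.0557), with quantile normalization in limma-voom (-0.32, 0.0737) and with totals alone (log2 fold -0.15, edgeR adjusted p = 0.219), where the log2 fold relative to the median was -0.41. miR-30b-3p stood at 9.20, 6.19 and 6.72 CPM in OIR P14 and 5.14, 4.30 and 5.52 CPM in OIR P29, without overlap. Its log2 fold of -0.59 ± 0.21 SE did not pass (edgeR adjusted p = 0.0508) and was the least precise of the 11. Without OIR P14 library 11 it was -0.35 (edgeR adjusted p = 0.175), with totals alone -0.31 (0.219), and without OIR P14 library 12 it was called, at -0.67 (0.0416). The abundant arms of the pair had log2 folds of -0.09 (miR-30d-5p, 95% interval -0.30 to 0.12) and -0.13 (miR-30b-5p, -0.29 to 0.04), not called, and both values turned positive with totals alone. miR-30b-5p was called lower with quantile normalization (log2 fold -0.45, limma adjusted p = 3.64e-04).

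**Figure D3:**
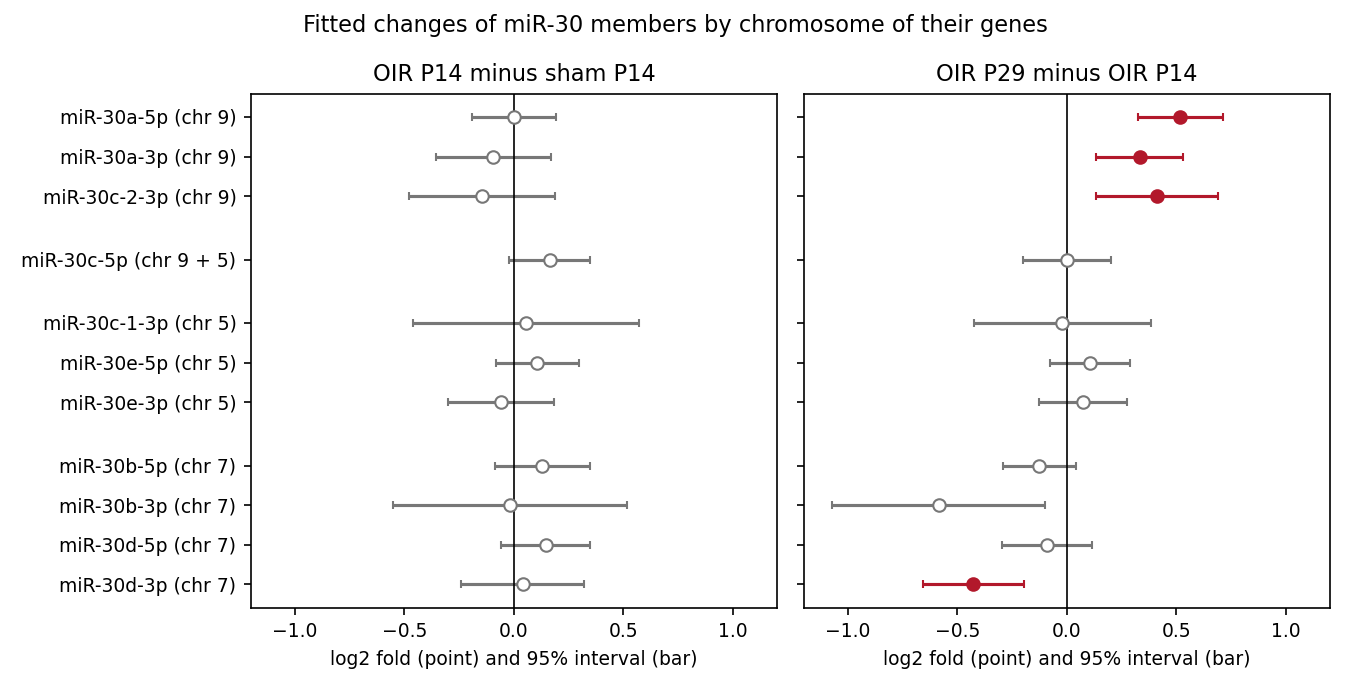
Log2 folds of the 11 members with 95% intervals in each comparison, ordered by the chromosome of their genes; filled red points passed edgeR's test at adjusted p under 0.05. No point is filled at P14. At P29 the arms that come only from the chromosome 9 pair lie between 0.33 and 0.52, while miR-30d-3p lies at -0.43. miR-30c-5p, made from both chromosome 9 and chromosome 5, lies at 5.4e-05.

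Ratios between members within a library do not depend on how libraries are scaled. In all, 7 pairs were compared, chosen after the values were seen. miR-30a-5p over miR-30d-5p was 1.23, 1.32 and 1.18 in sham P14, 1.05, 1.10 and 1.24 in OIR P14 and 1.63, 1.71 and 1.80 in OIR P29. The OIR P29 values lay above all others, a 1.52-fold rise over OIR P14. miR-30a-5p over its near-identical relative miR-30e-5p was 1.72, 1.72 and 1.85 in OIR P14 and 2.29, 2.34 and 2.41 in OIR P29, a 1.33-fold rise.

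Ratios between 3p arms were taken in the same way. miR-30a-3p over miR-30d-3p rose from 1.87, 1.999 and 2.07 in OIR P14 to 3.33, 3.34 and 3.35 in OIR P29, a 1.69-fold change. The 3p arms of the miR-30c copies, which can be assigned to 1 gene each, went from a ratio of 1.002 ± 0.187 (miR-30c-2-3p over miR-30c-1-3p) in OIR P14 to 1.32 ± 0.0723 in OIR P29 (SD, n = 3 each). In sham P14 that ratio was 0.947, 1.265 and 1.254, which overlapped the 1.310, 1.248 and 1.392 of OIR P29. For all 7 pairs OIR P29 and OIR P14 did not overlap, as for 57.8% of ratios between any pair of tested miRNAs. The pairs share members and were picked from members seen to move apart, so that count is a description that adds nothing to the calls above. Each had an exact two-sided permutation p of 0.1, the smallest that 3 against 3 libraries can give, and 0.156 after adjustment over 14 ratios, so none passed.

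Between sham P14 and OIR P14 the ratios of miR-30a-5p to miR-30e-5p (1.90 ± 0.0238 and 1.77 ± 0.0710) and of miR-30e-3p to miR-30d-3p (5.52 ± 0.123 and 5.18 ± 0.239) did not overlap (SD, n = 3 each). That was 2 of 7 pairs, where 17.4% of ratios between any pair of miRNAs did not overlap, with an exact permutation p of 0.1 each and 0.156 adjusted.

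**Figure D4:**
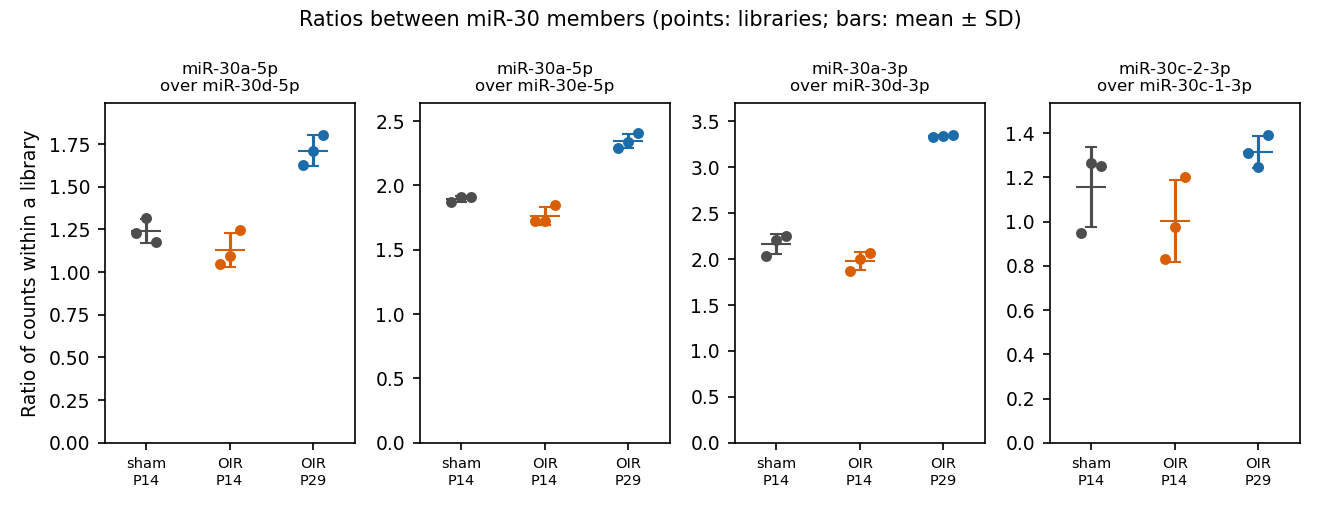
Ratio of the counts of 2 miR-30 members within each library (no unit, axis from 0); points are libraries, bars are the mean and SD of 3. In all 4 panels the OIR P29 points lie above the OIR P14 points, most tightly for miR-30a-3p over miR-30d-3p (3.33 to 3.35).

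The balance of counts between the arms differed between hairpins. miR-30e had the most 3p counts per 100 of 5p, with 8.18 ± 1.26 (sham P14), 7.26 ± 0.355 (OIR P14) and 7.14 ± 0.906 (OIR P29). miR-30b had the fewest, with 0.651 ± 0.207, 0.575 ± 0.147 and 0.416 ± 0.0476 (SD, n = 3 each). From OIR P14 to OIR P29 the groups did not overlap for 3 of 6 hairpins, against 33.1% of 124 hairpins with both arms tested (13.7% higher, 19.4% lower). miR-30d went from 0.927, 0.825 and 0.941 to 0.759, 0.690 and 0.684 3p counts per 100 5p counts, a fall of 1.26-fold. miR-30b was 1.36 times lower, a log2 change of -0.45 that was -0.25 without OIR P14 library 11, the highest of its group. The miR-30b ratio in sham P14 was 0.820, 0.420 and 0.712, which overlapped the 0.448, 0.361 and 0.438 of OIR P29. miR-30c-2 rose 1.33-fold against the shared miR-30c-5p, whose counts also include those of miR-30c-1. In sham P14 the miR-30c-2 ratio was 1.02, 0.844 and 1.07, which overlapped the 1.21, 0.957 and 0.985 of OIR P29. For miR-30a, whose arms both rose, the ratio was 1.57 ± 0.0759 and then 1.39 ± 0.146, and the groups overlapped. Exact two-sided permutation p was 0.1 for each of the 3, the smallest possible, and 0.4 after adjustment over 12 ratios. At P14 no miR-30 hairpin had groups that did not overlap (8.87% of all hairpins did, 4.03% higher and 4.84% lower).

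Within some libraries, most miR-30 hairpins had the lowest or the highest 3p to 5p ratio of the group. Sham P14 library 27 had the lowest 3p to 5p ratio of its group for 6 of 6 miR-30 hairpins (both miR-30c hairpins use the same 5p count), with a median deviation from the group mean of -0.22 on the log2 scale. Over 115 other hairpins the median deviation of that library was -0.02. OIR P29 library 20 had the highest ratio of its group for 6 of 6, with a median deviation of 0.18 against 0.0054 for the other hairpins. OIR P14 library 12 was lowest for 5 of 6 (-0.14 against 0.02). These libraries were picked after the values were seen, and other sets of 6 hairpins were not compared. A median over 115 hairpins varies less than a median over 6, so these values cannot show that the pattern is particular to miR-30. The cause was not tested.

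**Figure D5:**
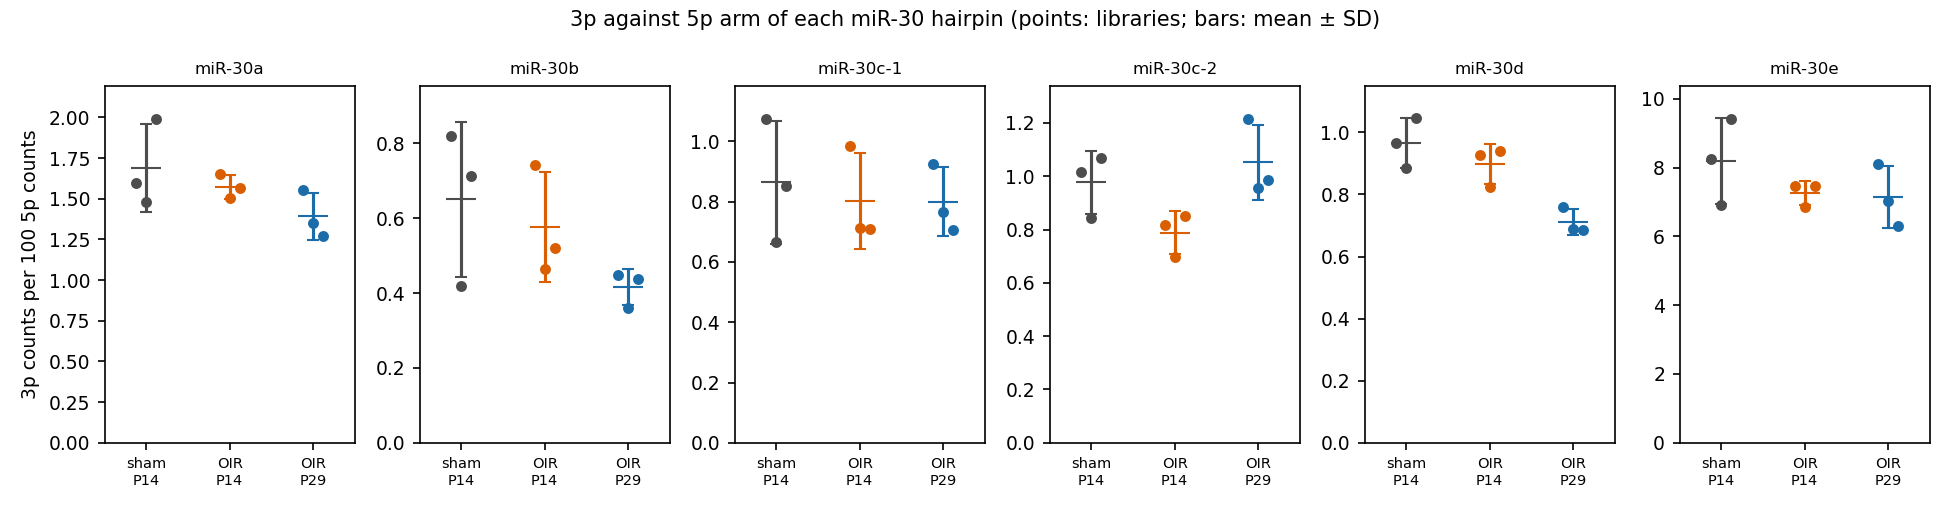
3p counts per 100 5p counts for each miR-30 hairpin (axis from 0); points are libraries, bars are the mean and SD of 3, and both miR-30c hairpins use the shared 5p arm. miR-30d sits lowest in OIR P29. There miR-30b sits lower and miR-30c-2 higher than in OIR P14, both overlapping sham P14, and miR-30e has about 7 to 8 in every group.

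miR-384-5p, which shares the 5p seed but comes from the X chromosome, stood at 113, 113 and 111 CPM in OIR P14 and 134, 147 and 159 CPM in OIR P29. From OIR P14 to OIR P29 it rose 1.28-fold, without overlap (log2 fold 0.36 ± 0.09 SE, edgeR adjusted p = 0.0152). In sham P14 it stood at 118, 137 and 111 CPM, which overlapped OIR P29. At P14 it was not called (log2 fold -0.09, edgeR adjusted p = 0.836).

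Markers of several retinal cell types also differed between OIR P29 and OIR P14, in a comparison where 46.7% of all miRNAs were called. The endothelial markers summed to 480 to 535 CPM in OIR P29 (2 of 2 higher) and the mural markers to 1478 to 1545 CPM (3 of 3 higher). The pigment epithelium miRNAs miR-204-5p and miR-211-5p, both higher, summed to 18390 to 23989 CPM in OIR P14 and 31154 to 35605 CPM in OIR P29. Of the photoreceptor miRNAs, miR-182 and miR-183-5p were lower and miR-96-5p higher. Of the neuron markers miR-9a-5p was lower, with 2 of 3 not called, and their sums overlapped (13988 to 17100 and 14169 to 15090 CPM). Of the leukocyte markers 1 of 4 was called higher (miR-150-5p) and 0 lower, with 2 log2 folds positive and 2 negative. Of the erythroid markers 2 of 3 were higher. miR-133a-3p, the muscle marker measured, was not called, and the muscle markers miR-1-3p and miR-206-3p were not among the miRNAs counted. The epithelium markers summed to 29.9 to 62.9 CPM in OIR P14 and to between 15.9 and 1935 CPM in OIR P29, the highest being library 47, and 0 of 2 tested were called. None of the markers counted was at 0 throughout a group, and their part in the miR-30 results was not tested. Of the angiogenesis-linked miRNAs, 11 of 28 were higher, 7 lower and 10 not called, with a median log2 fold of 0.36. Of all 424 miRNAs 22.9% were higher and 23.8% lower, with a median of -0.01. Examples are miR-132-3p, induced by neuronal activity, and miR-210-3p, induced in hypoxia, among the higher, and miR-17-5p and miR-18a-5p of the proliferation-linked miR-17 cluster among the lower.

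Among 264 other miRNAs with a mean count of at least 100, those whose log2(CPM + 1) ran most like that of the summed 5p arms over the 9 libraries were miR-339-5p (Pearson r = 0.96), miR-499-5p (0.94), miR-125a-5p (0.92), miR-344b-1-3p (0.92) and miR-23a-3p (0.91). These values are descriptions with no p, since the points share 3 groups and OIR P29 stands above the rest. By Spearman correlation 2 of the 5 remained among the nearest 5, miR-344b-1-3p and miR-23a-3p.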

How the data were processed

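Small RNA from retina was read as 50 bp single ends, per the labels' protocols. The authors deposited 2 tables of read counts per mature miRNA, each with a log2 fold and an adjusted p-value (false discovery rate) per miRNA, per the file headers. The submitters' processing notes name limma but no version. Build, aligner, counter and annotation: not given in the sources used here, and nor are trimming or mismatch settings. The 12 count columns hold 9 libraries (1395 of 1395 counts of the OIR P14 libraries agree between tables), named by codes. Groups were deduced from the tables in which a code stands: both (OIR P14), or the sham or P29 table alone.

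The 6 libraries of a comparison were fitted alone in edgeR 4.0.16 (R 4.3.3), with TMM scaling, filterByExpr (minimum count 10, minimum total 15), the quasi-likelihood F test and Benjamini-Hochberg adjustment over 415 or 424 miRNAs, called at adjusted p under 0.05. SEs were derived from F. Alternatives used DESeq2 1.42.0, limma 3.58.1, other scalings, no filter and fewer or more libraries. The code was tested on simulated data, whose changed miRNAs had larger log2 folds than any member. That test does not show how changes of the members' size are called. Ratios were tested by exact permutation in scipy 1.17.1.

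The members, lists and tests were chosen with earlier results of these data known. Named miRNAs are all members, miR-384-5p, the 5 most similar miRNAs, and examples from the lists.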

Additional observations from a re-analysis of the deposited data

How the results depend on the processing

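The number of members called at P14 was 0 under all 15 alternatives. At P29 it was 4, and 3 to 5 under the alternatives (3 to 4 with 1 library left out, 5 with totals alone). miR-30a-5p and miR-30a-3p were called under 15 of 15, miR-30c-2-3p under 13, miR-30d-3p under 12 and miR-30b-3p under 1 (without OIR P14 library 12). The authors' deposited table called the same 4 members. Members with small folds changed sign, none of them called in either fit. With totals alone the P14 log2 folds became -0.18 (miR-30a-5p), -0.052 (miR-30b-5p), -0.13 (miR-30c-1-3p), -0.019 (miR-30c-5p), -0.14 (miR-30d-3p), -0.042 (miR-30d-5p) and -0.078 (miR-30e-5p), and the P29 ones 0.14 (miR-30b-5p), 0.26 (miR-30c-1-3p) and 0.19 (miR-30d-5p). That scaling moved the median of all miRNAs from -0.03 to -0.21 at P14 and from -0.01 to 0.25 at P29, and its P29 calls were 148 higher and 53 lower against 97 and 101. Quantile normalization gave -0.078 (miR-30a-5p), 0.024 (miR-30b-3p) and 0.017 (miR-30e-3p) at P14. The miR-30b-3p fold at P14 was 0.0020 with DESeq2's size factors, 6.1e-04 in DESeq2 and 0.0084 without miR-182. At P29 miR-30c-1-3p was 0.0019 and miR-30c-5p -0.0021 in limma-voom, and miR-30c-1-3p was 0.033 with all 9 libraries. The authors' deposited table gave -0.023 (miR-30a-5p, P14) and 0.023 (miR-30c-1-3p, P29).

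With 1 library left out, P14 log2 folds ranged from -0.036 to 0.048 (miR-30a-5p), -0.21 to 0.16 (miR-30b-3p), -0.14 to 0.30 (miR-30c-1-3p), -0.032 to 0.10 (miR-30d-3p) and -0.13 to 0.0087 (miR-30e-3p). P29 ones ranged from -0.13 to 0.22 (miR-30c-1-3p), -0.035 to 0.090 (miR-30c-5p) and -0.16 to 0.0060 (miR-30d-5p). Log2 changes of 3p to 5p ratios ranged at P14 from -0.18 to 0.032 (miR-30a), -0.44 to 0.044 (miR-30b) and -0.27 to 0.071 (miR-30c-1), and at P29 from -0.11 to 0.16 (miR-30c-1) and -0.13 to 0.056 (miR-30e). That of miR-30e-5p to miR-30d-5p at P14 ranged from -0.076 to 0.0027. The cause of these changes was not tested. A total without miR-182 moved the family's share from 2.46% to 6.70% (sham P14), 2.29% to 6.83% (OIR P14) and 3.16% to 7.96% (OIR P29), by its construction. Spearman correlation kept 2 of the 5 most similar miRNAs.

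No paired analysis was possible because the count columns carry library codes and no replicate numbers. Depth limited miR-30b-3p most, at 62 to 119 counts per library.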
